A study of Mus musculus with 26 samples.

Results

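Untreated EA3 cells were compared with untreated EA2 cells. Both are mouse lung cancer cell lines, isolated from C57BL/6 mice whose tumors were started by an adenovirus carrying Cas9 and guide RNAs that cut Eml4 and Alk, so that both carry the EML4-ALK fusion. EA2 came from another laboratory and EA3 was made by the study's group, and each group is a single line. Cultures in RPMI-1640 with 10% fetal bovine serum received 0.1% DMSO, the solvent of the ALK inhibitor alectinib, and poly(A) RNA was sequenced after 1, 2, 3 and 5 days by the sample titles, whereas the treatment protocol names days 1, 3, 5 and 7. The comparison was set by the labels, as the 4 EA2 DMSO libraries against the 4 EA3 DMSO libraries of the same days, which are 8 of the 26 libraries of the series. Each line has 1 library per day, so that p-values measure the spread between days within these cultures, and a difference between the lines cannot be told apart from a difference in their derivation or passage. Libraries from EA1, a further line of the study, and those treated with 100 nM alectinib are given only where they bear on this pair.

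EML4-ALK joins the kinase domain of ALK to a self-associating part of EML4, and the constant signal drives growth through the MAPK pathway. Lung epithelium is held together by E-cadherin, claudins and desmosomes over a keratin cytoskeleton. Carcinoma cells in culture may keep these features or trade them for a mesenchymal state, in which transcription factors of the Zeb, Snail and Twist families repress junction genes by binding E-box sequences in their promoters.

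The 8 libraries held between 6606091 and 11251905 counts. Values are CPM, counts per 1000000 counts of the library, scaled with edgeR's TMM factors, and genes on chromosomes X and Y were left out. Log2 CPM values correlated between 0.955 and 0.983 among EA2 libraries, between 0.902 and 0.960 among EA3 libraries and between 0.775 and 0.881 across the lines. The library labelled EA3 DMSO day 7 was not used. It held 0 counts of Krt7, Cldn4 and Prl and 326 of Dcn, and so went with EA2 on the genes that separate the lines. Of cell type markers, Sftpc, Napsa and Nkx2-1 of alveolar type 2 cells, Tyrobp of myeloid cells, Tie1 of endothelium and Lum of fibroblasts were at 0 in all 8 libraries. Ptprc, the pan-leukocyte marker, reached 4 counts at most. The immune list still summed to 120 to 201 CPM in EA2 and 299 to 478 CPM in EA3, of its 3 tested members Cd14 and Mrc1 were higher in EA3 (66.7%, against 16% of all tested genes) and Cd68 was not called, and the part of other cells in this was not tested. The endothelial list summed to 102 to 201 CPM in EA2 and 95.6 to 451 CPM in EA3. Of its 6 tested members, Kdr was higher (16.7%, against 16% of all tested genes) and Pecam1 lower (16.7%, against 13.4%) in EA3, and the call for Kdr was lost without day 5 (edgeR adjusted p = 0.0654). Krt18, a keratin of simple epithelia, was high in both lines, at 1603 ± 286 (SD, n = 4) CPM in EA2 and 1662 ± 270.1 in EA3. The whole alveolar type 2 list summed to 269 to 325 CPM in EA2 and 463 to 498 CPM in EA3, and the alveolar type 1 list to 818 to 994 and 892 to 1312 CPM. Both lines therefore carried RNA of epithelial keratin and of part of the alveolar lists, while Sftpc, Napsa and Nkx2-1 were not detected.

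EA3 and EA2 differed over a large part of the transcriptome. With the day as a block, the quasi-likelihood test of edgeR, adjusted by the Benjamini-Hochberg method, called 3537 of 12032 tested genes (29.4%) at 0.05, of which 1921 (16%) were higher and 1616 (13.4%) lower in EA3. A log2 fold change of at least 1 was also met by 1270 of the higher (10.6% of those tested) and 1053 of the lower genes (8.75%). The 4 EA3 values all lay above the 4 EA2 values for 14.9% of the tested genes and all below for 12.5%. Scaling by library size alone gave a median log2 ratio of -0.145, against -0.0006, and turned the split into 1579 higher and 2276 lower. The called genes were spread over the functional lists unevenly, as the plot of the lists shows.

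**Figure D1:**
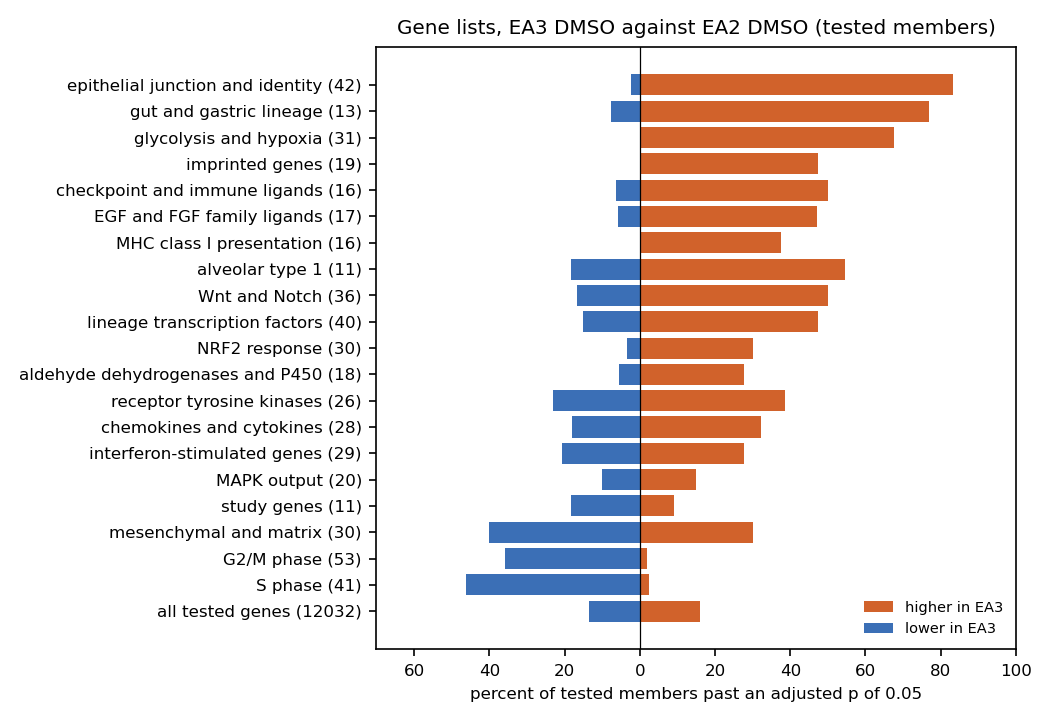
Percent of the tested members of each gene list past an adjusted p of 0.05 (edgeR quasi-likelihood test) that were higher (right, orange) or lower (left, blue) in EA3 DMSO than in EA2 DMSO, with the number of tested members in brackets and all 12032 tested genes in the bottom bar. Lists with under 10 tested members and 1 further list are left out. The epithelial list reached 83.3% higher and the S phase list 46.3% lower.

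A broad difference was seen in epithelial junction and identity genes, which were higher in EA3. Of 42 tested members, 35 were higher (83.3%, against 16% of all tested genes), 1 was lower and 6 were not called, and the median log2 fold change was 3.35 against -0.0006 for all tested genes. Some of these genes were at or near 0 in EA2. In bulk RNA, a smaller share of expressing cells and less RNA per cell cannot be told apart. Keratins, claudins, desmosomal genes and epithelial transcription and splicing factors all had members in this group.

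Promoters of these genes are shown because E-box binding repressors are known to act on several of them. Of 19 epithelial genes that were higher in EA3 and averaged under 1 CPM in EA2, 11 matched an entry of RefSeq's promoter table (GRCm38.p6). The E-box CACCTG was searched on both strands (CAGGTG on the other) in the 250 bases before RefSeq's start site, taking the entry nearest to the gene's start in GENCODE. The starts of the annotations differ, so that by GENCODE's gene spans the Krt7 and Crb3 stretches below lie inside the gene and that of Cldn6 overlaps its start. It was found in 7 of the 11, against 14.9% of 9020 tested genes and 17.2% of all 32851 promoters of the table. Of the other 23 tested epithelial genes, 12 matched an entry and 6 of these (50%) held it too, so that its presence was shared with epithelial genes outside this selection. A match of 6 letters is no evidence of binding. The sequences below run 5′ to 3′ on the gene's own strand with each CACCTG or CAGGTG in capitals. E-boxes of other sequence were not searched and stay in lower case. Cldn6 is added as the epithelial gene that went the other way.
Krt7 (chr15:101412153-101412402, plus strand): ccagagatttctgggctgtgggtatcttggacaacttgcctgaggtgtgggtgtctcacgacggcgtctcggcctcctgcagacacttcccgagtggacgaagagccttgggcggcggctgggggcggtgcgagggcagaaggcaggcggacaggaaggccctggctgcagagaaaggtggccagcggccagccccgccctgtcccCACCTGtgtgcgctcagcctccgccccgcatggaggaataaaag
Cldn4 (chr5:134946935-134947184, minus strand): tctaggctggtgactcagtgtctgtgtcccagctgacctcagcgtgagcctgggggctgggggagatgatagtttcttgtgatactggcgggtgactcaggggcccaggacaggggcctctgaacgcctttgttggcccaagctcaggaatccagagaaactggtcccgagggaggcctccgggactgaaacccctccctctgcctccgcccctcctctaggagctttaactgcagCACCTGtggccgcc
Epcam (chr17:87635729-87635978, plus strand): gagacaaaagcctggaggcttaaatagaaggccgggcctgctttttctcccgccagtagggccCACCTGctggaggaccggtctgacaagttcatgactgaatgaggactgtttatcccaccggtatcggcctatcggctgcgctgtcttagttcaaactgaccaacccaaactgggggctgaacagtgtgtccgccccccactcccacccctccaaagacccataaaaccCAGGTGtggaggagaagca
Crb3 (chr17:57061951-57062200, plus strand): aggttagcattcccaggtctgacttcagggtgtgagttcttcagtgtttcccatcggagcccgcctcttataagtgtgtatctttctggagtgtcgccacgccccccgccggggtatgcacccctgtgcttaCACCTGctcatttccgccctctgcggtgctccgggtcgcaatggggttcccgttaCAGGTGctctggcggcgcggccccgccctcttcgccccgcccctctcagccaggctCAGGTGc
Cldn6 (chr17:23679115-23679364, plus strand): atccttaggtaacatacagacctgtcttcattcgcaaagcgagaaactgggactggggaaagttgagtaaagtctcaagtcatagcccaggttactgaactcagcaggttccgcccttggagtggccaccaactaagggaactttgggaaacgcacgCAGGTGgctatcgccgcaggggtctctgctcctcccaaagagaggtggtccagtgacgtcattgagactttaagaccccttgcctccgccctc
The Krt7, Cldn4 and Cldn6 promoters each held 1 such E-box, Epcam 2 and Crb3 3. The promoters of Cldn7, Ocln, Marveld2 and Spint1, whose genes also averaged under 1 CPM in EA2, held none.

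Krt7, a keratin of simple and ductal epithelia (chr15:101411043-101430313), was measured at 0.272, 0.146, 0.0991 and 0.339 CPM on days 1, 2, 3 and 5 in EA2 and at 970.3, 1077, 391 and 1042 CPM in EA3. All 4 EA3 values lay above all 4 EA2 values, day 3 being the lowest in both lines, and the log2 fold change was 11.83 ± 0.30 (SE) with an edgeR adjusted p of 4.04e-07. Krt8, the partner of Krt18, was present in both lines and rose from 251 ± 31.1 to 1617 ± 379.7 CPM (log2 fold change 2.67 ± 0.18, edgeR adjusted p = 1.83e-05). Krt18 did not pass the test (log2 fold change 0.06 ± 0.20, edgeR adjusted p = 0.859), with a 95% interval from -0.41 to 0.52.

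Cldn4, a tight junction claudin (chr5:134945119-134946934), had 0 counts in all 4 EA2 libraries and 1193, 1076, 763 and 970 counts in the EA3 libraries. With 3 counts per library as the floor, it was at least 396-fold higher in EA3 (edgeR adjusted p = 1.68e-05). Cldn7 and Cldn3 moved the same way, from 0.0838 ± 0.0609 to 61.9 ± 26.4 CPM and from 7.53 ± 0.975 to 129 ± 39.8 CPM. Cldn6, a claudin of embryonic epithelia (chr17:23679249-23682446), was the exception, with 341, 345, 248 and 316 CPM in EA2 and 1.62, 2.04, 0.791 and 0.335 CPM in EA3. Its fall had a log2 fold change of -8.01 ± 0.34 (edgeR adjusted p = 1.83e-06), without overlap between the lines. Cldn3 was above the floor in both lines.

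Epcam, an epithelial adhesion molecule, had 0.634, 0.437, 0.297 and 0.594 CPM in EA2 and 97.4, 149.6, 75.2 and 214 CPM in EA3 (log2 fold change 7.99 ± 0.29, edgeR adjusted p = 1.57e-06). Cdh1, which encodes E-cadherin, was expressed in EA2 at 64.8 ± 22.6 CPM but at 652 ± 44.3 CPM in EA3 (log2 fold change 3.39 ± 0.21, edgeR adjusted p = 1.13e-05). Esrp1, which directs epithelial splicing, had 0, 1, 0 and 0 counts in EA2 and 366, 237, 216 and 301 counts in EA3, a ratio of 1350 with a 95% counting interval from 242 to 53300. The ETS factors Ehf and Elf3, which are restricted to epithelia, rose from 0.174 ± 0.188 to 57.2 ± 27.7 CPM and from 0.234 ± 0.207 to 80.2 ± 81.5 CPM. Ocln, Crb3, Rab25, the serine protease St14 and its inhibitor Spint1 were also higher in EA3. Besides Krt18, the members not called included Dsp, which encodes desmoplakin, Tjp1, a plaque gene of tight junctions, Ppl and Cd24a. For Dsp, which was at 68.5 ± 13.7 CPM in EA2 and 46 ± 18.2 CPM in EA3, the edgeR adjusted p was 0.0757. It passed with DESeq2 (adjusted p = 0.049) and, with edgeR, when scaled by library size alone (0.0355), with no filter on low counts (0.0138) and with the 12 DMSO libraries of 3 lines in the fit (0.0426).

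**Figure D2:**
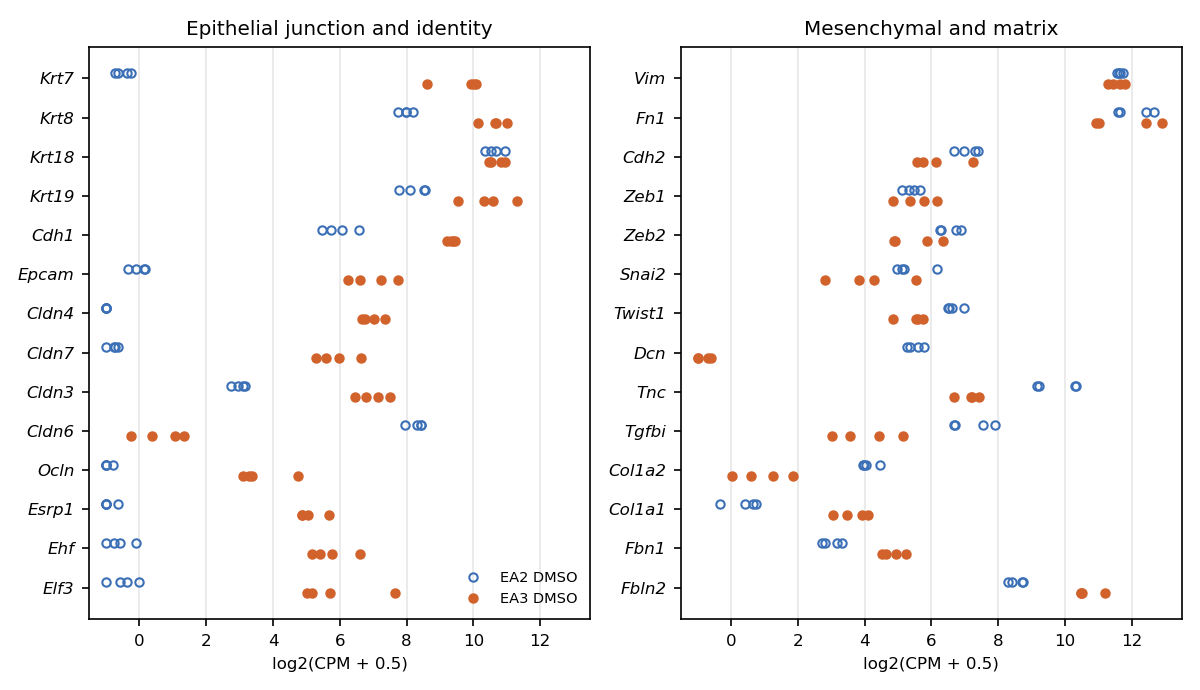
Level of selected epithelial (left) and mesenchymal (right) genes as log2(CPM + 0.5) in the 4 EA2 DMSO libraries (open blue) and the 4 EA3 DMSO libraries (filled orange), 1 point per day. Krt7, Epcam, Cldn4 and Esrp1 do not overlap between the lines, Cldn6 is reversed, and Vim, Fn1 and Zeb1 overlap.

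Mesenchymal and matrix genes did not form the mirror image. Of 30 tested members, 9 were higher (30%, against 16% of all tested genes) and 12 lower (40%, against 13.4%) in EA3. The median log2 fold change was -0.09, and the median log2 ratio on days 1, 2, 3 and 5 was -0.32, -0.45, 0.32 and -0.08, so that its sign was not the same on all days. Vim, the mesenchymal intermediate filament, was at 3182 ± 152 CPM in EA2 and 3001 ± 469 CPM in EA3 and was not called (edgeR adjusted p = 0.741). Fn1 and Zeb1, a repressor of E-cadherin, were not called either, with log2 fold changes of -0.27 and 0.15. Other repressors of the same program were lower in EA3. The log2 fold change was -1.05 ± 0.20 for Zeb2, -1.24 ± 0.30 for Snai2 and -1.23 ± 0.20 for Twist1, with edgeR adjusted p-values of 0.00506, 0.0145 and 0.00186. The values of the lines overlapped for Zeb2 and Snai2 but not for Twist1. Without the day as a block, Twist1 still passed, and Zeb2 and Snai2 had edgeR adjusted p-values of 0.0745 and 0.192.

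The matrix genes split between the lines. Dcn, the small proteoglycan decorin, had 416, 329, 543 and 477 counts in EA2 and 0, 1, 0 and 1 counts in EA3, a ratio of 733 in favor of EA2 with a 95% counting interval from 202 to 6050. Tnc, the matrix glycoprotein tenascin C, fell from 929 ± 403 to 142 ± 28.2 CPM (log2 fold change -2.63 ± 0.23, edgeR adjusted p = 6.77e-05). Tgfbi, Col1a2, Fbln1 and Sparc were lower in EA3 as well. In the other direction, Col1a1 was higher in EA3 (log2 fold change 3.79 ± 0.42, edgeR adjusted p = 0.000246) while Col1a2, which encodes its partner chain, was lower (log2 fold change -3.48 ± 0.40, edgeR adjusted p = 0.000314). Neither of these 2 genes had at least 10 counts in every library, so that both changes rest partly on low counts. The basement membrane chain Col4a1 was higher in EA3, as were Fbln2, which encodes fibulin 2, and Fbn1, which encodes fibrillin 1. Of the fibroblast list, Dcn, Col1a2, Fbln1 and Col1a1 were tested, Lum was at 0 and Col3a1 and Pdgfra were under 2 CPM in every library. The list summed to between 109 and 117 CPM in EA2 and between 17.6 and 30.5 CPM in EA3, and its part in the matrix result was not tested.

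Lineage genes also separated the lines. In the gut and gastric list, 10 of 13 tested members were higher in EA3 (76.9%, against 16% of all tested genes) and Cldn18 was lower, with a median log2 fold change of 3.10. Cldn18 had a log2 fold change of -1.97 ± 0.55 (edgeR adjusted p = 0.0272), and the call was lost without day 2, 3 or 5 (adjusted p between 0.0563 and 0.0986). Pdx1, a homeodomain factor of pancreas, duodenum and antrum, had 0 counts in EA2 and 259, 204, 154 and 89 counts in EA3, at least 65.8-fold higher. Anxa10 and Ctse, genes of the gastric epithelium, rose from 0.452 ± 0.324 to 39.3 ± 40.8 CPM and from 0.278 ± 0.223 to 19.9 ± 12.4 CPM. Hnf4a, a transcription factor of gut and kidney epithelium, rose from 2.4 ± 0.538 to 33.5 ± 15.1 CPM. Cdx2 was not called (edgeR adjusted p = 0.202).

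Of 40 tested lineage transcription factors, 19 were higher (47.5%, against 16% of all tested genes) and 6 lower (15.0%, against 13.4%). Gata6, an endoderm factor, had 2.63, 2.04, 3.27 and 2.97 CPM in EA2 and 53.2, 44, 65.7 and 75.5 CPM in EA3 (log2 fold change 4.44 ± 0.21, edgeR adjusted p = 3.22e-06). Sox2, a factor of airway and foregut progenitors, went the other way, with 71.2, 69.3, 133 and 108 CPM in EA2 and 0.539, 0.36, 5.8 and 3.85 CPM in EA3 (log2 fold change -5.56 ± 0.47, edgeR adjusted p = 5.63e-05). Neither gene overlapped between the lines. Runx3 and Id3 were lower in EA3, whereas Foxa1 was not called. None of the 39 Hox genes reached the count needed for a test, and together they summed to at most 0.198 CPM in EA2 and to between 3.95 and 13.2 CPM in EA3. Of 6 tested alveolar type 2 genes only Abca3, a lipid transporter of lamellar bodies, and Muc1 were called, both higher in EA3 (33.3%). Of 11 alveolar type 1 genes, 6 were higher (54.5%, against 16% of all tested genes) and 2 lower (18.2%, against 13.4%), the latter including Cav1, which encodes caveolin 1. Of 4 tested airway genes, Foxj1, a factor of ciliated cells, and Muc5b, a secreted mucin, were higher (50%) and Sox2 was lower (25%).

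Imprinted genes, which are expressed from only the maternal or paternal copy, were higher in EA3 wherever they were called. This held for 9 of 19 tested members (47.4%, against 16% of all tested genes), with none lower, against 13.4%. Peg3, a paternally expressed zinc finger gene (chr7:6703892-6730431), had 0, 0, 0 and 1 counts in EA2 and 421, 281, 1287 and 383 counts in EA3, a ratio of 2860 with a 95% counting interval from 512 to 113000. Usp29, its neighbor, and Peg10, on another chromosome, had 0 counts in every EA2 library and were at least 12-fold and 12.2-fold higher. Sgce, next to Peg10, Mest and Igf2r were also higher, and Gnas was not called.

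Some genes were detected in only 1 of the lines. Among 8722 genes with at least 50 counts in every EA3 library, 56 (0.642%) had at most 3 counts in every EA2 library, and 7 of the 56 belong to the epithelial list, being 20.6% of its 34 members among the 8722. Among 9097 genes with at least 50 counts in every EA2 library, 16 (0.176%) had at most 3 in every EA3 library, a number that became 25 without day 1 and 26 without day 2. By mean CPM in EA3, the highest of the 56 were Pxdn, Cldn4, Prl, Il5ra and Fermt1. Prl, the pituitary hormone prolactin, had 0 counts in EA2 and 88.5, 196, 110.0 and 103 CPM in EA3, at least 395-fold higher. Pxdn, which encodes the matrix crosslinking enzyme peroxidasin, had 0, 0, 1 and 0 counts in EA2 and 203, 129, 237 and 137 CPM in EA3. Il5ra, the interleukin 5 receptor, varied more, with 145, 71, 174 and 34.6 CPM in EA3. Adam19, Stac, Cdcp1 and En1 were also among the 10 largest rises and had 0 counts in every EA2 library, which puts them at least 233, 162, 141 and 115-fold higher. In EA1, the mean was 182 ± 46.8 CPM for Pxdn and 319 ± 145 CPM for Il5ra, while Prl was at 0.

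The protein-coding genes highest in EA2 among the 16 were 1700012B09Rik, Dcn, Adh7, Arsj and Ifi202b. 1700012B09Rik had 921, 662, 848 and 650 counts in EA2 and 1, 1, 0 and 0 in EA3. Adh7, an alcohol and retinol dehydrogenase, had 41.1, 37.6, 35.1 and 27.5 CPM in EA2 and 1, 1, 0 and 0 counts in EA3. Ifi202b, an interferon-inducible gene of the p200 family, had 27.4, 34.5, 29.9 and 25 CPM in EA2 and 1, 1, 0 and 1 counts in EA3. Vcan, the proteoglycan versican, and Gap43, a growth-associated protein of neurons, were among the 10 largest falls, from 181 ± 45.5 to 1.03 ± 0.838 CPM and from 33 ± 4.8 to 0.15 ± 0.18 CPM. Kcnu1, a potassium channel of sperm, and Mtus2, a microtubule-associated gene, were also among these 10, with EA2 to EA3 ratios of 744 (95% counting interval 133 to 29400) and 417 (115 to 3450). Of the 56 genes at the floor in EA2, 50 stayed at no more than 3 counts in all EA2 alectinib libraries. Of the 16 at the floor in EA3, 5 did so in all EA3 alectinib libraries. Of the 56, 17 had at least 50 counts in every EA1 DMSO library and 16 were at the floor there, and of the 16, 12 were at the floor in EA1 and 0 were at 50.

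Receptors and ligands of growth factor signaling differed in both directions. Of 26 tested receptor tyrosine kinases, 10 were higher (38.5%, against 16% of all tested genes) and 6 lower (23.1%, against 13.4%) in EA3. Egfr was measured at 0.634, 0.582, 0.297 and 0.678 CPM in EA2 and at 19.2, 16.9, 34.4 and 30.8 CPM in EA3 (log2 fold change 5.47 ± 0.37, edgeR adjusted p = 1.75e-05). Its partner Erbb3 rose from 2.04 ± 1.09 to 45.1 ± 11.2 CPM, and Erbb2 from 38.3 ± 3.53 to 67.1 ± 10.2 CPM. The call for Erbb2 was lost without day 2 (log2 fold change 0.74, edgeR adjusted p = 0.0535). Fgfr1 and Ddr2, receptors for fibroblast growth factors and collagen, fell from 214 ± 27.7 to 36.5 ± 20.9 CPM and from 56.3 ± 24.2 to 4.16 ± 3.37 CPM. Egfr and Erbb3 were thus low but detected in EA2 and higher in EA3, and Fgfr1 and Ddr2 had the opposite order. Met, the receptor for hepatocyte growth factor, was not called.

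Among 17 tested EGF and FGF family ligands, 8 were higher (47.1%, against 16% of all tested genes) and Fgf7 alone was lower. The EGF receptor ligands Btc and Tgfa were higher in EA3, with log2 fold changes of 2.75 ± 0.21 and 1.60 ± 0.20 (edgeR adjusted p = 3.28e-05 and 0.000429), while Hbegf was not called. Fgf7, a growth factor for epithelia, fell from 15.2 ± 2.46 to 0.914 ± 0.618 CPM. Alk, which both lines carry as a fusion, did not pass the test (119 ± 17.9 CPM in EA2, 83.9 ± 12.4 CPM in EA3, edgeR adjusted p = 0.0568). Its log2 fold change of -0.50 ± 0.17 had a 95% interval from -0.90 to -0.11, the values of the lines did not overlap, and it passed with DESeq2 (adjusted p = 0.0359) and, with edgeR, when scaled by library size alone (adjusted p = 0.0277) and with the 12 DMSO or all 24 libraries of 3 lines in the fit (0.0284 and 0.0118). Counts for Alk and Eml4 include reads from the fusion transcript and, for Eml4, from the intact allele, and these cannot be told apart in the table. Of 11 tested genes that the study set out to follow, 1 was higher (9.09%, against 16% of all tested genes), which was Cxcl1, and 2 were lower (18.2%, against 13.4%), Eml4 among them. Of 20 genes that report MAPK output, 3 were higher (15.0%) and 2 lower (10.0%), shares close to those of all tested genes. Etv4, Etv5, Dusp6 and Fosl1 had log2 fold changes of -0.32, -0.56, -0.34 and -0.50, none of which passed over the 4 days. Etv5 passed without day 3 (log2 fold change -0.75, edgeR adjusted p = 0.0410), with library size alone (0.0368), with no filter on low counts (0.0324) and with the 12 DMSO libraries of 3 lines in the fit (0.0348). Without day 5, Fosl1 passed (-0.84, edgeR adjusted p = 0.0433). Ccnd1, which encodes cyclin D1, was lower in EA3 (1214, 1211, 939.7 and 1289 CPM in EA2, 686, 390.1, 386 and 207 CPM in EA3, edgeR adjusted p = 0.00365), and the feedback inhibitor Spry1 was higher.

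Some cell cycle genes were lower and most glycolytic genes higher in EA3, and the medians of these lists were nearest to 0 on day 1 and farthest from it on day 5. Of 41 tested S phase genes, 19 were lower (46.3%, against 13.4% of all tested genes) and 1 was higher, and of 53 G2/M genes, 19 were lower (35.8%, against 13.4%) and Psrc1 alone was higher. The median log2 ratio of the S phase list was 0.02, -0.74, -1.04 and -1.40 on days 1, 2, 3 and 5, and that of the G2/M list was 0.12, -0.61, -0.59 and -1.11. On day 1 the S phase list summed to more in EA3 than in EA2, at 5063 and 4665 CPM. Mki67, the proliferation antigen Ki-67, had 526, 497, 279 and 504 CPM in EA2 and 561, 189, 178 and 126 CPM in EA3 on days 1, 2, 3 and 5. Its call (edgeR adjusted p = 0.046) was lost without day 2, 3 or 5 (adjusted p between 0.0808 and 0.150) and without the day block (0.230). With edgeR it was also lost among genes of at least 10 counts in every library (0.0525) and with the 24 libraries of 3 lines (0.0565). Cdc45, a helicase component, had 87.7, 91.6, 74.9 and 71.3 CPM in EA2 and 45.5, 35.8, 18.1 and 11.9 CPM in EA3 (log2 fold change -1.71 ± 0.28, edgeR adjusted p = 0.0019). The summed G2/M list fell from 10540 to 3720 CPM between days 1 and 5 in EA3 and was 9358 and 7656 CPM in EA2, and in EA1 it went from 11130 to 3675 CPM.

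Of 31 tested glycolysis and hypoxia genes, 21 were higher in EA3 (67.7%, against 16% of all tested genes) and none was lower. The median log2 ratio of this list was 0.33, 1.24, 1.12 and 1.97 on days 1, 2, 3 and 5. Gapdh had 1665, 2031, 1794 and 1399 CPM in EA2 and 4455, 5783, 4912 and 14337 CPM in EA3 (log2 fold change 1.91 ± 0.35, edgeR adjusted p = 0.00376). Vegfa, the hypoxia-induced angiogenic factor, had 139, 103, 428 and 278 CPM in EA2 and 186, 589.8, 1445 and 3039 CPM in EA3 (log2 fold change 2.05 ± 0.44, edgeR adjusted p = 0.00853), and Ndrg1 ended at 2375 CPM in EA3. For Ndrg1 the call was lost without day 2 or day 3 (edgeR adjusted p = 0.0738 and 0.0790) and with no filter on low counts (0.307). The lactate exporter Slc16a3, the hexokinase Hk2 and Hif1a itself were higher. Cell density, oxygen and glucose were not measured, and culture time moves with these values. In a fit of the change of the line difference per doubling of days, edgeR's test called 0 of 12032 genes, with 746 at an unadjusted p under 0.05 and 62 called by DESeq2. The genes with the smallest p were Kcnab2, Angptl4 and Dusp1. Kcnab2, a potassium channel subunit, had 27.5, 26.8, 22.3 and 23.3 CPM in EA2 and 0, 0.12, 0.264 and 3.35 CPM in EA3. Angptl4, an inhibitor of lipoprotein lipase, had 35.1, 41.1, 43.4 and 31.6 CPM in EA2 and 27.9, 137, 269.5 and 478 CPM in EA3. Dusp1, a MAPK phosphatase, had 10.9, 10.3, 17.4 and 11.2 CPM in EA2 and 13.6, 28.9, 151 and 567 CPM in EA3.

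**Figure D3:**
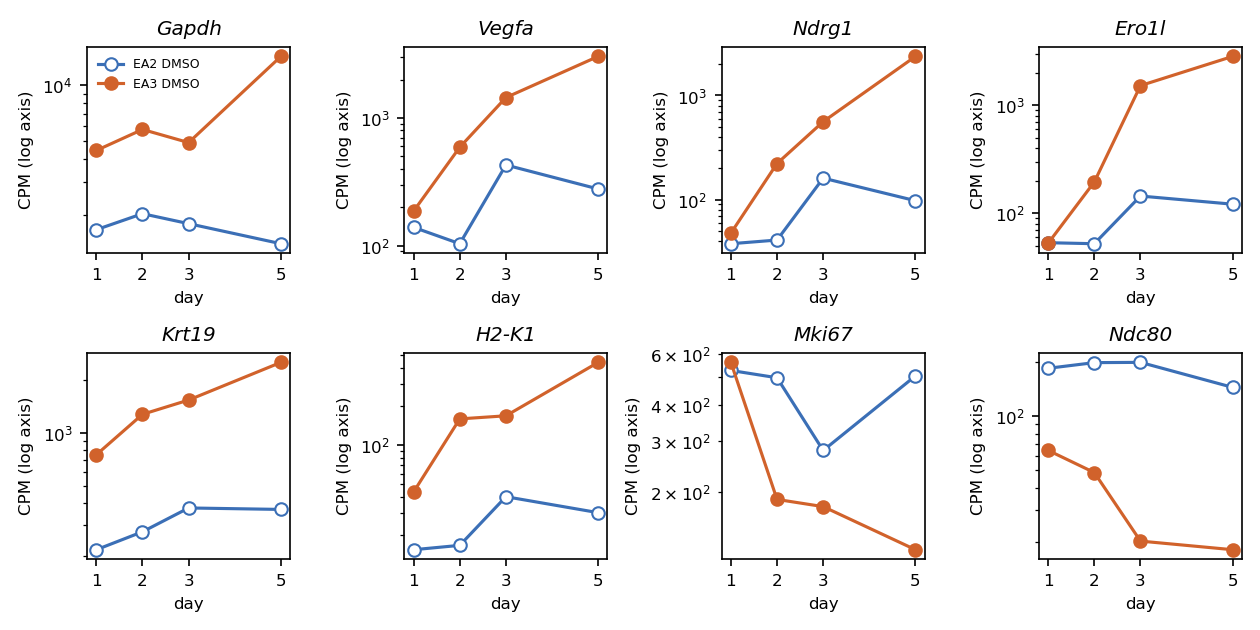
CPM on a log axis against the day of culture for 8 genes in EA2 DMSO (open blue) and EA3 DMSO (filled orange), 1 library per point. Vegfa and Ndrg1 were closer in the lines on day 1 than on day 5, Gapdh and Ndc80 were apart on every day, and Mki67 was lower in EA3 from day 2.

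Immune genes were mixed. Of 28 tested chemokines and cytokines, 9 were higher (32.1%, against 16% of all tested genes) and 5 lower (17.9%, against 13.4%) in EA3. Ccl20, which attracts CCR6-bearing lymphocytes, had 0 counts in EA2 and 15, 124, 151 and 114 counts in EA3, at least 43.8-fold higher. Il23a rose from 0.0665 ± 0.0863 to 20.3 ± 8.32 CPM and Cxcl16 from 1.36 ± 0.77 to 68.2 ± 28.6 CPM. Cxcl1, a neutrophil attractant, had 16.8, 32.8, 38.8 and 36.9 CPM in EA2 and 32.8, 176, 197 and 376 CPM in EA3 (log2 fold change 2.29 ± 0.34, edgeR adjusted p = 0.00135), and only the day 1 EA3 value lay within the EA2 range. Csf1, the macrophage growth factor, fell from 194 ± 47.2 to 51.4 ± 6.77 CPM. Cxcl9 was at 0 in all 8 libraries.

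Of 16 tested MHC class I presentation genes, 6 were higher (37.5%, against 16% of all tested genes) and none lower. H2-K1 had 15.5, 16.7, 39.9 and 30.02 CPM in EA2 and 43.5, 160.3, 169 and 439.9 CPM in EA3 (log2 fold change 2.68 ± 0.38, edgeR adjusted p = 0.00101). H2-D1 and H2-T23 were also higher, but near-identical class I genes may share reads, and B2m, Tapbp and Nlrc5 were not called. H2-K1, H2-D1, H2-T23 and Tapbp lie on chromosome 17, where 34.5% of 620 tested genes were higher and 9.19% lower. The part of this position in the class I result was not tested. Of 29 interferon-stimulated genes, 8 were higher (27.6%, against 16% of all tested genes) and 6 lower (20.7%, against 13.4%), with a median log2 fold change of 0.05. Ifitm3, an antiviral membrane protein, fell from 213 ± 13.6 to 30.9 ± 14.5 CPM (edgeR adjusted p = 0.000161), and Oasl1 rose from 0.892 ± 0.247 to 29.7 ± 25.7 CPM (edgeR adjusted p = 8.55e-05).

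In the Wnt and Notch list, 18 of 36 tested members were higher (50%, against 16% of all tested genes) and 6 lower (16.7%, against 13.4%). Dll1, a Notch ligand, had 2.99, 4.37, 9.91 and 4.92 CPM in EA2 and 56.6, 112, 194 and 185 CPM in EA3 (log2 fold change 4.61 ± 0.24, edgeR adjusted p = 4.23e-06), and Jag2, Jag1, Notch1 and the target Hes1 were higher as well. Wnt7a was at 1.18, 1.46, 1.39 and 1.44 CPM in EA2 and at 56.8, 50.9, 56.9 and 59.9 CPM in EA3, whereas Wnt5a, a ligand of the noncanonical branch, fell from 72.2 ± 21.7 to 10.7 ± 3.95 CPM. Of 18 aldehyde dehydrogenase and P450 genes, 5 were higher (27.8%, against 16% of all tested genes) and Cyp1b1 was lower (5.56%, against 13.4%). Of 30 NRF2 response genes, 9 were higher (30%, against 16% of all tested genes) and Txn1 was lower (3.33%), the latter call being lost without day 3 or day 5 (edgeR adjusted p = 0.0807 and 0.0713). Among checkpoint and immune ligands, 8 of 16 were higher (50%), Ulbp1 was lower (6.25%), and Cd274, which encodes PD-L1, was not called at 1.57 ± 0.103 and 2.56 ± 2.09 CPM.

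The difference between the lines also followed position in the genome. Coordinates are those of GENCODE M21 on GRCm38, the assembly of mm10. The median log2 fold change of the tested genes was 0.52 on chromosome 17, 0.37 on chromosome 6, 0.32 on chromosome 5 and 0.25 on chromosome 19. It was -0.30 on chromosomes 13 and 4 and -0.27 on chromosome 8, against -0.0006 for all genes. On chromosome 17, 34.5% of 620 genes were higher and 9.19% lower, and on chromosome 4, 9.96% of 763 were higher and 26.1% lower, against 16% higher and 13.4% lower of all tested genes. The day medians lay between 0.352 and 0.602 on chromosome 17, between 0.292 and 0.360 on chromosome 5 and between -0.402 and -0.246 on chromosome 4. Each of these kept its sign on all 4 days, as did every other autosome except 1, 7, 12 and 18. In alectinib libraries, which share no sample with these, the medians were 0.38 on chromosome 17, 0.28 on chromosome 5, 0.27 on chromosome 6 and -0.34 on chromosome 4. Among windows of 50 neighboring tested genes, chr5:64803388-76999937 had 37 genes higher and 0 lower with a median of 0.85, and chr4:11051045-33052363 had 3 higher and 26 lower with a median of -0.80.

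**Figure D4:**
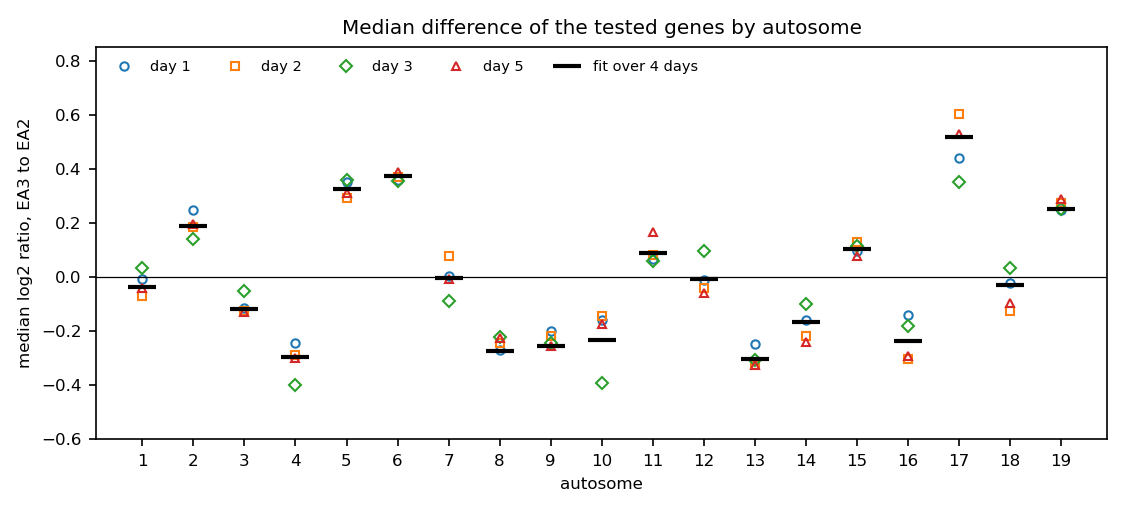
Median log2 ratio of EA3 DMSO to EA2 DMSO over the tested genes of each autosome, by day (open symbols) and in the fit over the 4 days (black bars). Chromosomes 5, 6, 17 and 19 lie above 0 and chromosomes 4, 8, 9 and 13 below 0 on all 4 days. The sign differs between days only on chromosomes 1, 7, 12 and 18.

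Along chromosome 17 the sign of the difference turned more than once, and one turn lay at Alk, one of the genes that were cut to make the fusion. Alk spans chr17:71868972-72604627 and Eml4 spans chr17:83350931-83480361. Of the 620 tested genes of the chromosome, 34.5% were higher and 9.19% lower, against 16% and 13.4% of all tested genes. Before the last 40 tested genes proximal to Alk, the chromosome had a median log2 fold change of 0.53. The last 30 tested genes proximal to Alk, from Ppp4r1 to Clip4 (chr17:65782573-71864273), had a median of -1.11, with 19 lower and 1 higher, and the day medians ran from -1.22 to -0.854. The first 30 tested genes distal to Alk, from Ypel5 to Rmdn2 (chr17:72836453-79693192), had a median of 1.05, with 23 higher and 2 lower, and the day medians ran from 0.819 to 1.13. The sign therefore turned between Clip4 and Ypel5, the tested genes on either side of Alk. Another turn lay farther proximal and away from the cut genes, between Nudt12 (chr17:58999618-59013372, log2 fold change 0.59) and Efna5 (chr17:62604184-62881317, log2 fold change -0.73), and the genes from Efna5 to Rab31 were all below 0. These stretches were chosen after their values were seen, so that no test was made on them.

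Beside Alk, the microtubule protein gene Clip4 had 24.4, 24, 24.7 and 21.7 CPM in EA2 and 1.8, 2.4, 1.19 and 2.01 CPM in EA3, and the kinetochore gene Ndc80 had 185, 199, 199.6 and 145 CPM in EA2 and 64.6, 48.6, 20.2 and 18.1 CPM in EA3. On the far side, Lclat1 had 4.8, 4.51, 6.24 and 3.48 CPM in EA2 and 33.3, 14.8, 30.7 and 12.9 CPM in EA3, and Spast, the microtubule-severing ATPase spastin, had 18.8, 20.7, 14.9 and 17.1 CPM in EA2 and 56.9, 40.4, 41.9 and 38.3 CPM in EA3. None of these 4 genes overlapped between the lines. Near Eml4, single genes differed in sign. Pkdcc and Eml4 were lower in EA3, with log2 fold changes of -1.85 ± 0.43 and -1.47 ± 0.27 (edgeR adjusted p = 0.012 and 0.00404). Without day 3 the call for Pkdcc was lost (edgeR adjusted p = 0.0540). The genes that followed, Cox7a2l and Mta3, were higher, with log2 fold changes of 1.93 ± 0.23 and 1.48 ± 0.17 (edgeR adjusted p = 0.000387 and 0.000321). The lower values began before Pkdcc, as Thumpd2 had a log2 fold change of -1.58. Before Thumpd2, Morn2 and Sos1 were at -0.53 and -0.66, neither of them called, and Map4k3 was at 0.02. The medians of the whole parts were alike, at 0.90 over the 45 tested genes from Alk to Eml4 and 0.69 over the 36 distal to Eml4. Ptprm, which lies in the lower stretch proximal to Alk, was an exception at 0.0474 ± 0.0549 CPM in EA2 and 15.5 ± 11.2 CPM in EA3.

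In alectinib libraries, the same stretch proximal to Alk had a median of -0.73 with 15 lower and 2 higher of 24 tested genes, and the stretch distal to Alk had a median of 0.87 with 22 higher and 0 lower of 30. Set beside EA1 DMSO, and relative to the median of all tested genes, the proximal stretch had day medians between 1.30 and 1.41 in EA2 and between -0.003 and 0.266 in EA3. The distal stretch had day medians between -0.677 and -0.502 in EA2 and between 0.160 and 0.385 in EA3. Over both stretches EA2 stood apart from EA3 and from EA1. DNA copy number and the structure of the rearrangement were not measured, and their part in these values was not tested.

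**Figure D5:**
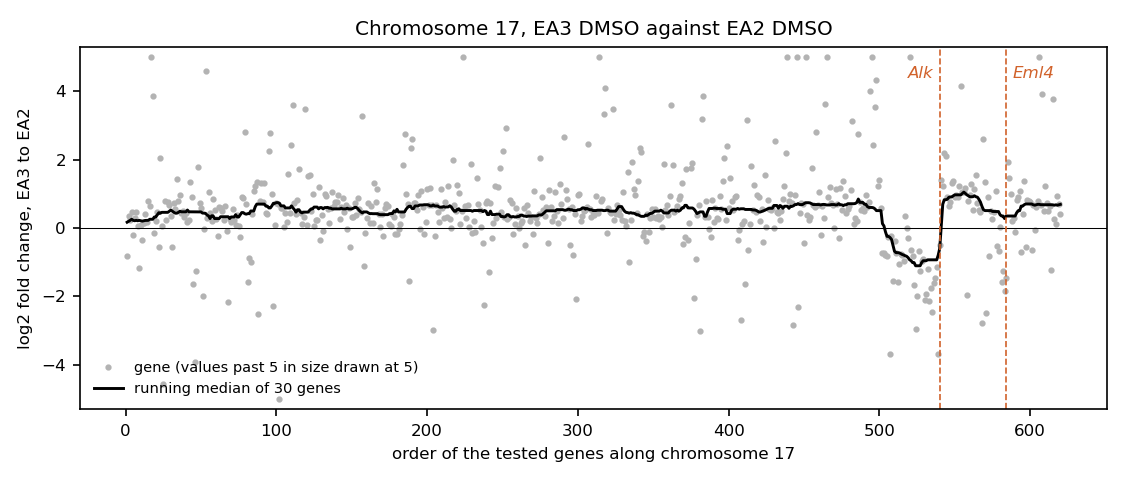
Log2 fold change of EA3 DMSO to EA2 DMSO for the 620 tested genes of chromosome 17 in their order along the chromosome (gray points, values past 5 in size drawn at 5), with a running median of 30 genes (black). The median drops below -1 just before Alk and rises to about 1 just after it, and the dashed lines mark Alk and Eml4.

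Most of the difference between the lines was also seen under alectinib. Of the 3537 genes called in DMSO, 3342 were tested between EA3 and EA2 in the 8 alectinib libraries, 93.1% of these had the same sign and 62.1% were called in the same direction, where 17.5% of 12194 tested genes were called higher and 14% lower. These 2076 genes made up 54.1% of the 3835 calls made in alectinib, a count that fell to 1908 without day 2, and 17 genes were called in opposite directions. A test of the change itself called 214 of 13238 genes (1.62%), of which 128 (0.967%) had a higher and 86 (0.65%) a lower ratio of EA3 to EA2 under alectinib, and 130 were among the DMSO calls. Without day 2 it called 8, and without day 1, 3 or 5 it called 112, 40 and 79. Prl2c2, a placental hormone gene with near-identical copies that may share reads, was 17.9 ± 3.71 CPM in EA2 and 17.3 ± 12.7 CPM in EA3 under alectinib, against 1.4 ± 0.538 and 245 ± 123 CPM in DMSO, a difference of -7.65 in log2 fold change (edgeR adjusted p = 6.23e-05). Dll1 was 6.73 ± 2.84 CPM in EA2 and 6.3 ± 1.49 CPM in EA3 under alectinib, a difference of -4.64 (edgeR adjusted p = 0.0013). Cdh17, an intestinal cadherin, was 2.63 in DMSO and -1.70 in alectinib on the log2 scale, a difference of -4.31 (edgeR adjusted p = 0.00135). The epithelial list had 33 of 42 tested members higher and 2 lower in EA3 under alectinib, with a median log2 fold change of 4.82, and the glycolysis and hypoxia list had 10 of 31 higher and 1 lower with a median of 0.43.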

How the data were processed

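RNA from mouse EML4-ALK lung cancer lines was sequenced as poly(A) libraries. The authors checked reads with FastQC, trimmed them with bbduk, aligned them to mm10 with STAR and counted reads per gene with STAR's counter, and the deposited values are whole-number counts, not normalized. The annotation release and the strand setting are not given in the sources used here. A table of 55415 rows was read, with 0 columns left unmapped. Of these rows, 24 held dates in place of symbols (0.129% to 0.201% of counts) and were left out, as were 4182 genes on X and Y. All 55391 symbols matched GENCODE M21 after the capitals of 8922 were respelled. Days are those of the sample titles.

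Genes with too few counts were dropped with filterByExpr (at least 10 counts), and 12032 were fitted in edgeR 4.0.16 (R 4.3.3) with TMM factors and a robust quasi-likelihood fit, with line and day as terms and Benjamini-Hochberg adjustment at 0.05. The day, the label that pairs the libraries, served as the block. Libraries of the same day deviated together (r = 0.476, 0.203, 0.31 and 0.244 on days 1, 2, 3 and 5), but so did some of different days (r = 0.439 for EA3 day 1 with EA2 day 2, 0.43 for EA3 day 5 with EA2 day 3 and 0.251 for EA3 day 3 with EA2 day 5). On simulated counts the fit recovered 44 of 100 genes changed by 1 and 97 of 100 changed by 2 on the log2 scale, and called 3 of 11832 unchanged genes. The changed genes were drawn only from those above a minimum mean count, so that recovery of low genes was not measured. Counts were drawn independently from the fitted model, and departures from that model were not covered. The alectinib libraries were fitted alike, the difference between treatments as an interaction, and the day trend per doubling of days. DESeq2 1.42.0, other scalings, filters and sample sets and each day left out were tried.

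A floor of 3 counts per library set bounds where a line was at 0, and ratios resting on 1 to 3 counts carry exact 95% intervals. Both cover counting error only. CPM values behind the prose are from edgeR. Genes named were the 10 largest rises and falls among protein-coding genes, the 3 smallest p-values of each list, the study's genes, the 5 highest genes at the floor in each line, the 3 smallest p-values of the interaction and the day trend, and markers, and some genes and 1 list that this rule picks are not reported here. Other list members and the genes of chromosome 17 were chosen after their values were seen. The members and the lists were chosen with earlier results of these data known.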

Additional observations from a re-analysis of the deposited data

Results flagged for a closer look

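Among 294 groups of 4 libraries checked, which were the EA2 and EA3 values of each tested gene named in the text except 12 whose 4 values were equal, 29 had 1 library far from the other 3, meaning that its gap to the nearest, as a share of the range of the group, was over Dixon's 95% critical value. Chance alone gives about 1 in 20 such groups. On day 1 in EA2 this was so for Col1a2 (21.6 CPM, gap 0.851 of the range). On day 2 in EA2 this was so for Mest (2.18 CPM, gap 0.919 of the range) and Rab31 (662 CPM, gap 0.83 of the range). On day 3 in EA2 this was so for Dusp1 (17.4 CPM, gap 0.879 of the range), Hbegf (299 CPM, gap 0.96 of the range), Mki67 (279 CPM, gap 0.88 of the range) and Snai2 (70.9 CPM, gap 0.887 of the range). On day 5 in EA2 this was so for Cav1 (303 CPM, gap 0.931 of the range) and Muc1 (3.39 CPM, gap 0.832 of the range). On day 1 in EA3 this was so for Mki67 (561 CPM, gap 0.857 of the range). On day 3 in EA3 this was so for Adam19 (95.1 CPM, gap 0.905 of the range), Cdx2 (45.4 CPM, gap 0.873 of the range), Fbln2 (2364 CPM, gap 0.965 of the range) and Krt7 (391 CPM, gap 0.844 of the range). On day 5 in EA3 this was so for Anxa10 (99.9 CPM, gap 0.831 of the range), Elf3 (202 CPM, gap 0.884 of the range), Gapdh (14337 CPM, gap 0.866 of the range), Kcnab2 (3.35 CPM, gap 0.921 of the range), Ocln (26.6 CPM, gap 0.904 of the range), Pkdcc (12.2 CPM, gap 0.852 of the range) and Sparc (145 CPM, gap 0.841 of the range). Of all 29 groups, 8 stood apart on EA3 day 5, the library with the fewest counts of the 8. 8 of the 29 had no library over 10 counts, where 1 or a few reads make such a gap. The gap was 1 of the range for Esrp1 in EA2 on day 2, Foxj1 in EA2 on day 3, Il5ra in EA2 on day 3, Kcnu1 in EA3 on day 3, Ocln in EA2 on day 5, Pecam1 in EA3 on day 5, Peg3 in EA2 on day 5 and Pxdn in EA2 on day 3.

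For 15 genes of the text, the difference between EA3 and EA2 was itself not the same in alectinib as in DMSO (edgeR's test of the interaction, adjusted over 13238 genes). The log2 ratio of EA3 to EA2 was larger under alectinib for Cldn3 (4.04 in DMSO and 6.17 in alectinib, a difference of 2.14, edgeR adjusted p = 0.0148), Csf1 (-1.89 in DMSO and -0.47 in alectinib, a difference of 1.43, edgeR adjusted p = 0.0307), Cyp1b1 (-2.47 in DMSO and -0.64 in alectinib, a difference of 1.85, edgeR adjusted p = 0.0403), Epcam (7.99 in DMSO and 13.16 in alectinib, a difference of 5.18, edgeR adjusted p = 0.0403), Etv4 (-0.32 in DMSO and 2.32 in alectinib, a difference of 2.64, edgeR adjusted p = 0.0407), Ifi202b (-8.13 in DMSO and -3.79 in alectinib, a difference of 4.36, edgeR adjusted p = 0.00644), Muc1 (4.65 in DMSO and 7.43 in alectinib, a difference of 2.79, edgeR adjusted p = 0.0426), Notch1 (1.85 in DMSO and 3.97 in alectinib, a difference of 2.13, edgeR adjusted p = 0.023), Spint1 (4.69 in DMSO and 7.73 in alectinib, a difference of 3.05, edgeR adjusted p = 0.0446) and Wnt5a (-2.75 in DMSO and 0.08 in alectinib, a difference of 2.85, edgeR adjusted p = 0.00606). It was smaller for Cav1 (-1.41 in DMSO and -3.15 in alectinib, a difference of -1.72, edgeR adjusted p = 0.0074), Cdh17 (2.63 in DMSO and -1.70 in alectinib, a difference of -4.31, edgeR adjusted p = 0.00135), Dll1 (4.61 in DMSO and -0.04 in alectinib, a difference of -4.64, edgeR adjusted p = 0.0013), Krt7 (11.83 in DMSO and 8.59 in alectinib, a difference of -3.23, edgeR adjusted p = 0.0113) and Prl2c2 (7.39 in DMSO and -0.28 in alectinib, a difference of -7.65, edgeR adjusted p = 6.23e-05). The fitted values of genes near 0 counts, such as Epcam in EA2, depend on the prior count and bound no fold. Without day 2 the interaction test called 8 genes in all.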

How the results depend on the processing

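Counts of called genes between EA3 and EA2 in DMSO ranged from 2500 to 3463 with a day left out (1348 to 1956 higher, 1139 to 1507 lower), against 3537 in the fit reported. Without the replicate block of day, 2851 were called (1680 higher, 1171 lower), and Zeb2, Snai2, Txn1 and Mki67 lost their calls while no other gene named here did. A log2 change of at least 1 left 2323 (1270 and 1053), and glmTreat against that change left 1242 (752 and 490). With all 24 libraries in the fit, 2912 were higher. In alectinib, leaving out a day gave 1908 to 3428 calls. The interaction gave 701 calls with DESeq2, 984 with no filter and 8 to 112 with a day left out (112, 8, 40 and 79 without days 1, 2, 3 and 5). The day trend gave 62 with DESeq2, 91 with no filter and 0 with any day left out. Genes at the floor in EA2 numbered 18 at 0 counts, 104 at up to 10 and 59 to 82 with a day left out. Those in EA3 numbered 0, 48 and 18 to 26 (25 and 26 without days 1 and 2). The chromosome median became 0.356 on chromosome 6 with library size alone, and -0.246 on chromosome 8 and 0.288 on chromosome 19 among genes of average log2 CPM of at least 3. The log2 fold change of Krt18, not called, was -0.0881 with library size alone and -0.0683 and -0.0677 without day 2 and day 5, that of Cd274 was -0.19 without day 5 and that of Cd68 was 0.0932 without day 3. The cause of these shifts was not tested.

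The comparison rests on 1 library per line and day and a single line each, so that the spread between days is the only error. In simulated counts, changes of 1 on the log2 scale were often missed. Genes near 0 counts in either line are limited by depth.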
